A study of Rattus norvegicus with 5 samples.

Results

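Semaphorins, their plexin receptors and the neuropilin co-receptors were examined in maps of DNA regions enriched by an antibody against N6-methyladenine (6mA, adenine with a methyl group at its N6 position) in rat neural cells. Members were every gene symbol of the Sema, Plxna to Plxnd and Nrp1/Nrp2 series that a listed region named in its promoter, upstream, exon, intron, downstream or gene body class. The 9 region lists named 28 such genes among 23553 symbols in all. The RefSeq table of rat genes (GRCr8) holds 31 genes of these families, so 3 were named by no region: Plxna3, Plxnb1 and Sema4b, of 15.9, 25.5 and 41.3 kb. The named genes were all 7 class 3 semaphorins, 5 of 6 of class 4, 2 of class 5, 4 of class 6, Sema7a, both neuropilins, 3 of 4 A-type plexins, 2 of 3 B-type plexins, Plxnc1 and Plxnd1.

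Semaphorins are guidance cues that turn, repel or attract growing axons and migrating cells. Class 3 members are secreted, classes 4 to 6 span the membrane, and Sema7a is held to the membrane by a lipid anchor. Plexins are the receptors that carry the signal into the cell through a GTPase-activating domain, and most class 3 semaphorins reach them through a neuropilin, which binds the ligand but signals little by itself. In the brain these proteins steer axon bundles, prune synapses and place newborn neurons, and in the hippocampus they are known for shaping the layers in which fibres end.

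The groups were neural stem cells (NSCs) of the SCR022 line, Neurons and Astrocytes, with no treatment, genotype, age or time named in the labels. SCR022 is a commercial line of rat hippocampal stem cells, so the NSCs stand for 1 line, and the source of the Neurons and the Astrocytes is not described in the labels. Each cell type gave 1 immunoprecipitated library of sonicated, denatured DNA, and input libraries without enrichment were samples for NSCs and Neurons. The immunoprecipitated libraries held between 15760246 reads (NSCs) and 16095308 reads (Neurons), of which 86.55% to 87.94% mapped uniquely, and the inputs held 27936774 reads (NSCs) and 22329441 reads (Neurons). Folds over input also rest on inputs of unequal depth, and those of Astrocytes on an input that is not among the samples. With 1 library per group no difference can be held against a replicate spread, no test was made, and cell type and library cannot be told apart. RNA was not measured, so the cell type labels could not be set against marker genes, and no other assay of 6mA at these regions was used here.

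Peaks in the promoter class were few, and the promoters of 4 genes with such a peak are printed because they let the starts of these genes be compared letter by letter. They are the 250 bases before the RefSeq start (GRCr8), 5′ to 3′ along the gene. Capitals mark the word GAGGC and its variants, which are GAGGT and the forms CAGGC as well as CAGGT, on either strand, so that a printed GCCTC stands for the first of them on the other strand. They are forms of a motif reported for human 6mA, and overlapping words were counted separately. Sema3g lies at chr16:6419775-6420024 (plus strand), Sema3d at chr4:23460972-23461221 (minus), Plxnc1 at chr7:31430606-31430855 (minus) and Sema6a at chr18:42358541-42358790 (minus).
Sema3g: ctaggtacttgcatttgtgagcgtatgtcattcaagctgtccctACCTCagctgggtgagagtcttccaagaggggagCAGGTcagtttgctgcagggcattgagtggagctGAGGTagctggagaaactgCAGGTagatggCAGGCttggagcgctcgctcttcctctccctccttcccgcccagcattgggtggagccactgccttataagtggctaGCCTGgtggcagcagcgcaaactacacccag
Sema3d: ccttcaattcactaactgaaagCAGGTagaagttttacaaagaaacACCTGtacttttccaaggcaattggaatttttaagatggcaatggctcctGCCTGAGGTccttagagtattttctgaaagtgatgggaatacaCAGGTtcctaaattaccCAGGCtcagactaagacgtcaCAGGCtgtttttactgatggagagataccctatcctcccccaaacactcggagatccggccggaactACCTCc
Plxnc1: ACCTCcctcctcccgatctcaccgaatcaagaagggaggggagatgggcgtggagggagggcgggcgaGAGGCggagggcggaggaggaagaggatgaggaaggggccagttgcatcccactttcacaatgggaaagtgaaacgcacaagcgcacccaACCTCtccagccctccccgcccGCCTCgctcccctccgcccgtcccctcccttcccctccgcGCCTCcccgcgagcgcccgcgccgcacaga
Sema6a: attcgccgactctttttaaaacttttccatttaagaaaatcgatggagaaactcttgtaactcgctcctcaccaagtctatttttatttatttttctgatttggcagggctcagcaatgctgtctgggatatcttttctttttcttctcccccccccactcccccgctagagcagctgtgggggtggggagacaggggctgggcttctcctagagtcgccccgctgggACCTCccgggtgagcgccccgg
The Sema3g promoter held 6 words and 5 CpG, and Sema3d held 8 words and 4 CpG. Plxnc1 held 5 words and 22 CpG, and Sema6a held 1 word and 10 CpG. At least 1 word stood in 90.7% of the 33469 RefSeq promoters of this length, with a median of 3 words and 5 CpG per promoter, so such words are common in promoters. GATC, an adenine methylation word of bacteria, was in the Sema3d and Plxnc1 windows once each, and in 40.6% of all promoters. Peaks could not be placed within these windows, with the build of their lists not given in the sources used here.

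Promoter peaks were listed at 6 genes in all. Sema3g, a secreted class 3 semaphorin, was the single family gene with a promoter peak in every cell type. Its peak began at position 7303461 of chromosome 16 in NSCs, 7303618 in Neurons and 7303366 in Astrocytes, had the authors' folds of 7.89, 14.2 and 8.58 over input, and ran from the promoter across an exon into an intron. In NSCs, Sema4g (chromosome 1, 264740142 to 264740528, fold 14.7) and Sema6a (chromosome 18, 41453693 to 41454041, fold 11.3) also had one. Neurons had promoter peaks at Plxnc1 (chromosome 7, 36002836 to 36003227, fold 7.54), Sema3d (chromosome 4, 19413812 to 19414208, fold 10.9) and Sema6d (chromosome 3, 116938193 to 116938411, fold 11.4). Regions naming Sema6d spanned 18.4 kb beside a RefSeq length of 592.9 kb, so its promoter class may not lie at the RefSeq start. None of these promoter peaks was annotated to a CpG island or its shore. The counts of 3, 4 and 1 of 31 genes in NSCs, Neurons and Astrocytes stand beside 7.65%, 9.39% and 7.59% of 20950 protein-coding genes with a promoter peak, and are too small to place apart from them. With a score of at least 100 the count was 1 in each cell type, and the promoter peaks of Sema6a and Sema3d overlapped no region of the comparison lists.

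Peaks were found at 20 of the 31 genes in NSCs, 23 in Neurons and 20 in Astrocytes. Over all 20950 protein-coding genes of the reference, 45.7%, 49.2% and 45.9% had a peak in the same lists. These families hold many long genes, and 14 of the 31 span at least 100 kb. In that length class 13, 14 and 13 of 14 had a peak in NSCs, Neurons and Astrocytes, against 91.4%, 91.9% and 91.3% of all genes so long. Below 30 kb the counts were 6, 8 and 6 of 14, against 27.04%, 30.9% and 27.4%. These 14 genes span 10.5 to 28.9 kb and were not matched by length within that class. In all, 109 peaks of NSCs, 138 of Neurons and 112 of Astrocytes named a family gene. Per 100 kb of reference length that is 2.78, 3.52 and 2.86 peaks, beside 3.46, 3.99 and 3.40 for all genes together. Sema6d, with a RefSeq length of 592.9 kb and regions spanning 18.4 kb, weighs on this density: without it the values were 3.28, 4.09 and 3.37. The value of all genes kept every gene, among them any with such a mismatch, so these values are not set against it.

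**Figure D1:**
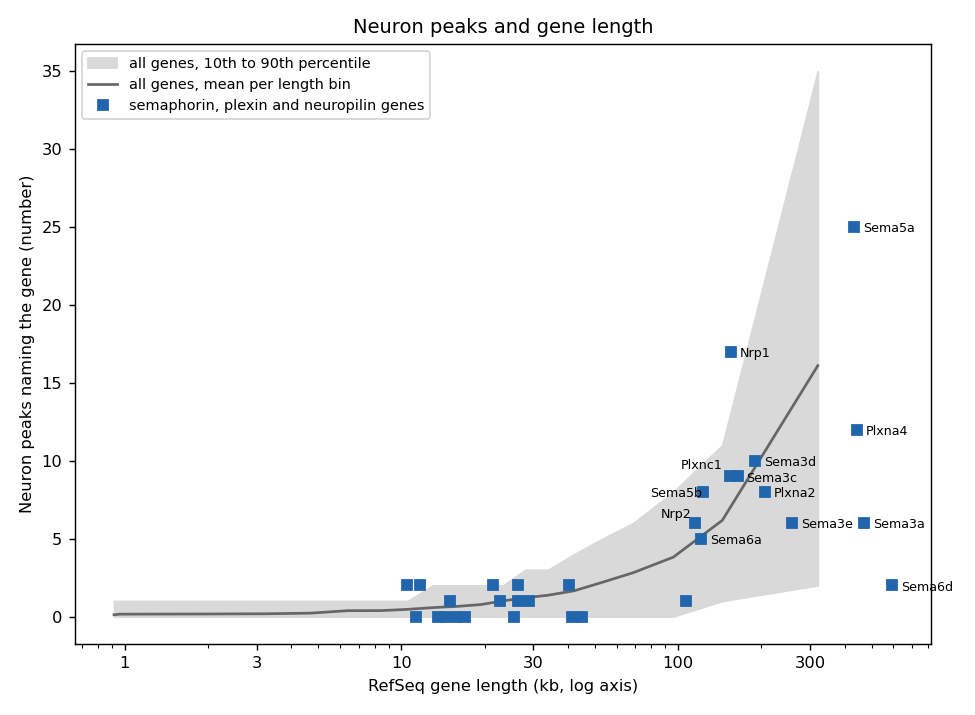
Each square is a semaphorin, plexin or neuropilin gene, placed by RefSeq gene length (kb, log axis) and by the number of Neuron peaks that name it; the line and the grey band are the mean and the 10th to 90th percentile of all protein-coding genes in bins of length. Most long members lie within the band, and Nrp1 with 17 peaks lies above it at its length. Sema6d with 2 peaks sits low at a RefSeq length of 592.9 kb, while the regions that name it span 18.4 kb.

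Nearly all of these peaks were intronic. Of the family peaks, 105 of 109 in NSCs, 131 of 138 in Neurons and 109 of 112 in Astrocytes touched an intron, and 4, 10 and 7 touched an exon. Introns, exons and CpG islands were not counted over all gene body peaks, so none of these counts is given as particular to the families. The median fold over input was 13.0, 13.1 and 12.7, near the 12.3, 12.1 and 12.5 of all gene body peaks. Median widths were 472, 464 and 431 bp, and the peaks covered 58.1, 70.8 and 55.8 kb. A single peak lay in a CpG island: a Neuron peak of Plxna4 at 59882286 to 59882770 of chromosome 4, with a fold of 21.7 across an exon and an intron. The shore of a CpG island held the strongest peak of Sema6a in every cell type.

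**Figure D2:**
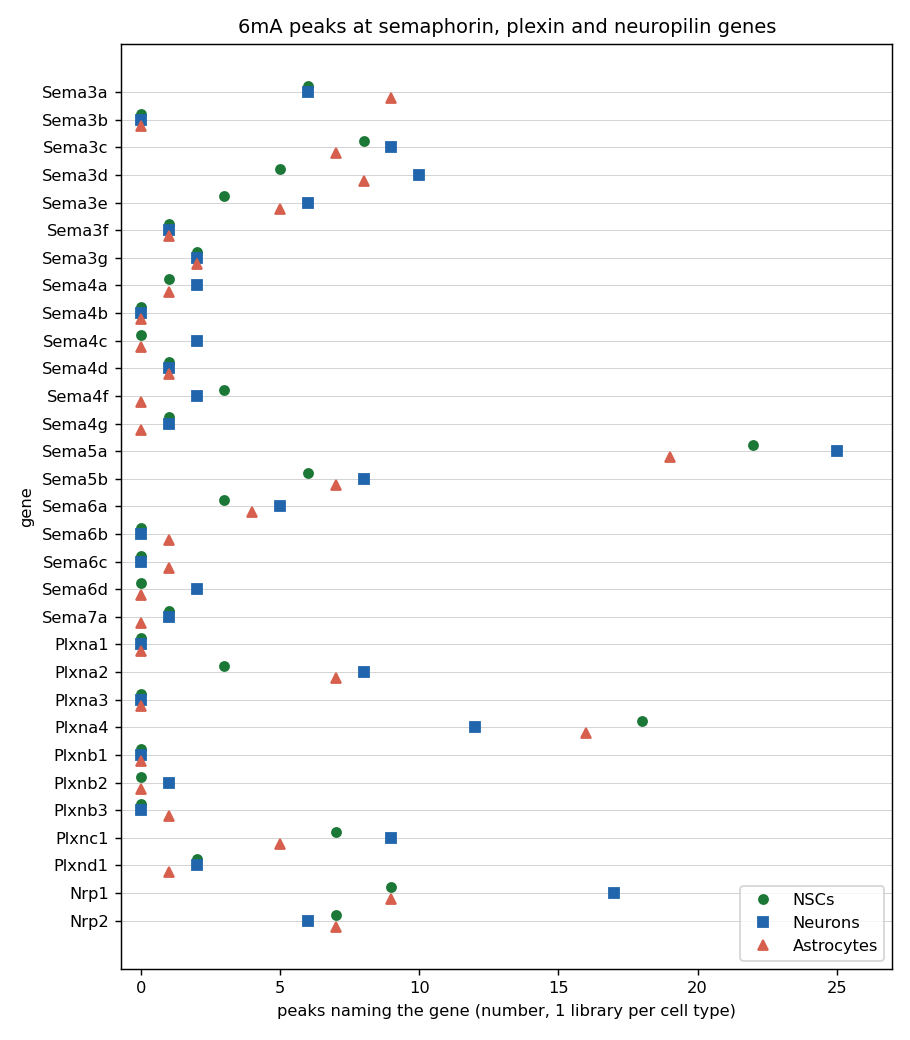
Each row is a gene and each symbol the number of peaks naming it in NSCs (circle), Neurons (square) or Astrocytes (triangle), 1 library per cell type. Sema5a has most peaks in each library, followed by Plxna4 in NSCs and Astrocytes and by Nrp1 in Neurons, where Nrp1 has 17 peaks beside 9 in each of the other libraries. Peaks of every score are counted. With a score of at least 100 Nrp1 has 3, 3 and 4 and Plxna4 8, 9 and 7 in NSCs, Neurons and Astrocytes.

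Among the secreted class 3 ligands, the long genes carried most of the peaks: 25 in NSCs, 34 in Neurons and 32 in Astrocytes over 7 genes. Sema3a, the classical repellent that collapses growth cones, had 6 peaks in NSCs, 6 in Neurons and 9 in Astrocytes. Its strongest site (chromosome 4, 18381301 to 18381955) had folds of 31.3, 15.7 and 20.4 in that order of cells. Sema3c, which guides cortical axons and neural crest cells, had 8, 9 and 7 peaks, with folds of 33.9, 24.2 and 24.2 at its strongest site (chromosome 4, 14409969 to 14410583). An exon of Sema3c was touched in NSCs at 14402039 to 14402519, with a fold of 18.8. Sema3d had 5, 10 and 8 peaks, and its strongest site (19295814 to 19296363, same chromosome) had folds of 17.6, 21.4 and 24.2. Neurons thus had most Sema3d peaks, and 6 of the 14 Sema3d sites, counted after overlapping peaks of the 3 cell types were merged, were found in Neurons alone.

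Sema3e, which signals through Plxnd1 without a neuropilin, was the least shared of the long class 3 genes. It had 3 peaks in NSCs, 6 in Neurons and 5 in Astrocytes, at 12 sites. None of the 12 sites had a peak in all 3 cell types, and 10 had a peak in 1 only, 5 of these in Neurons and 4 in Astrocytes. Its highest fold was 17.6 in NSCs, 14.5 in Neurons and 14.0 in Astrocytes, and none of its peaks reached a score of 100 (the authors' score is 10 times the −log10 p of a peak). Among all gene body peaks below that score, 48.1% in NSCs, 55.1% in Neurons and 46.3% in Astrocytes overlapped no peak of the other cells. Another 21.7%, 15.4% and 22.3% overlapped both, and the 3, 6 and 5 Sema3e peaks are too few to place apart from these shares. The short genes Sema3f and Sema3g had every site in all 3 cell types. Sema3f, the ligand of Nrp2, had a single site (chromosome 8, 116463290 to 116464279) with folds of 18.8 in NSCs, 33.4 in Neurons and 21.4 in Astrocytes. The second Sema3g site (chromosome 16, 7310077 to 7310947) covered exon and intron and had folds of 8.92, 15.1 and 20.5. Sema3b had no peak in any cell type.

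**Figure D3:**
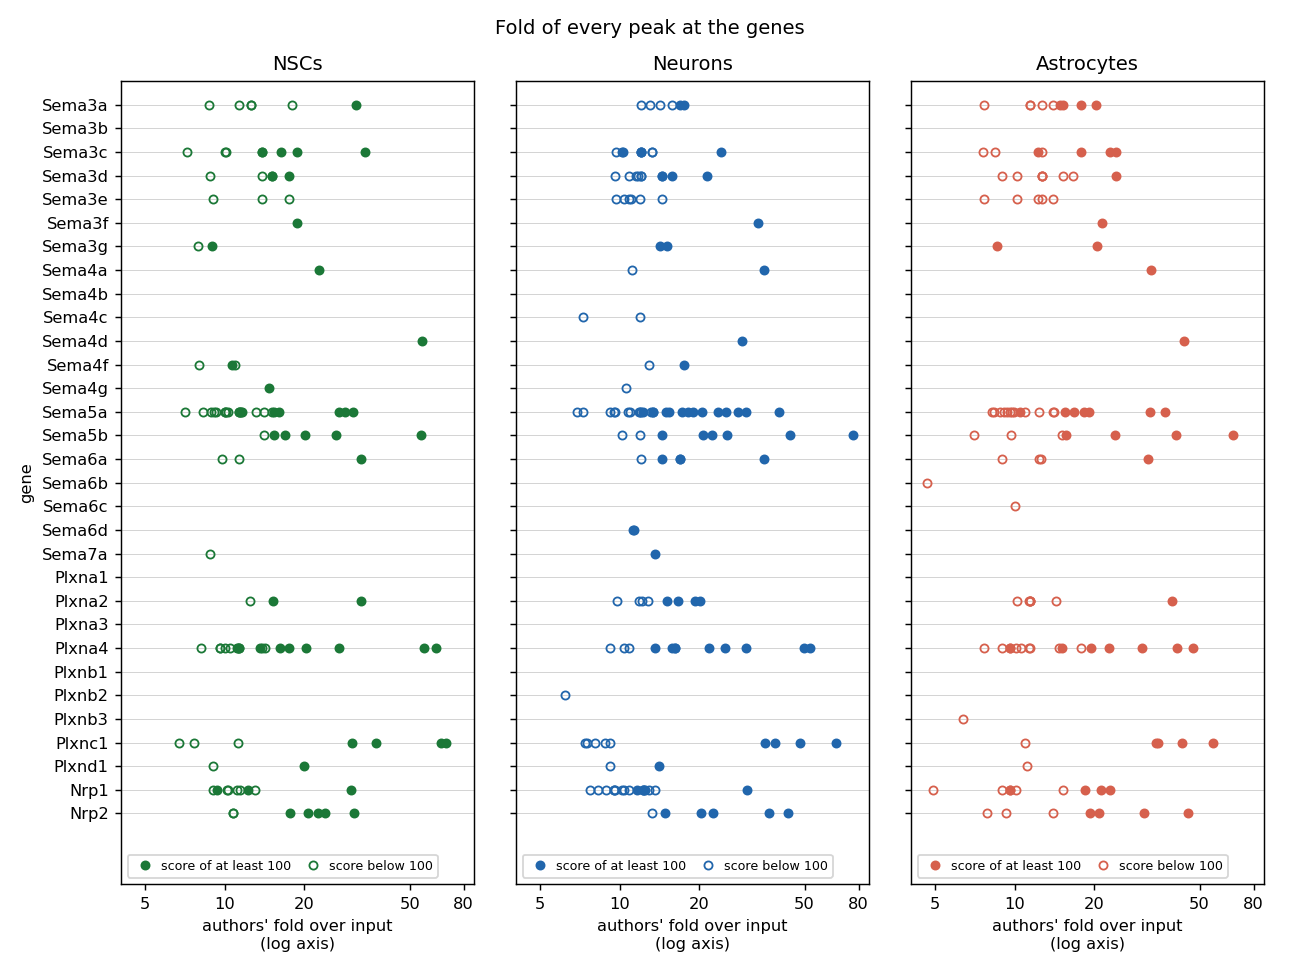
Every peak at the 31 genes is a circle at the authors' fold over input (log axis), filled where its score is at least 100, with NSCs, Neurons and Astrocytes in separate panels. The folds above 50 belong to Sema4d, Sema5b, Plxna4 and Plxnc1, while all Sema3e circles are open.

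The membrane-bound class 4 ligands had few peaks, 6 in NSCs, 8 in Neurons and 2 in Astrocytes, in 6 mostly short genes. Sema4d, the ligand of Plxnb1 that is also known from lymphocytes, had 1 strong intronic site in every cell type (chromosome 17, 13517869 to 13518739), with folds of 55.6 in NSCs, 29.1 in Neurons and 43.6 in Astrocytes. Sema4a likewise had a site in all cells (chromosome 2, 187804712 to 187805708; folds of 22.7, 35.1 and 32.6), and Neurons had 1 more Sema4a peak with a fold of 11.2. Sema4f had 3 peaks in NSCs and 2 in Neurons and was without one in Astrocytes, and its 11.4 peaks per 100 kb in NSCs was the highest density there among family genes with at least 3 peaks. That density counts 1 peak downstream of the gene, outside the length used. With its 2 gene body peaks alone Sema4f would fall short of 3 peaks. Sema4c, a ligand of Plxnb2, had 2 exon peaks in Neurons alone, with folds of 11.9, at a region that also names Ankrd39, and 7.26. Sema4g had its promoter peak in NSCs and a separate peak in Neurons (fold 10.5), and none in Astrocytes. In this class, therefore, the Astrocyte peaks were those of Sema4a and Sema4d, both at sites found in every cell type.

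Class 5 semaphorins, membrane proteins with thrombospondin repeats, were the most densely covered ligands, with 5.05 peaks per 100 kb in NSCs, 5.96 in Neurons and 4.69 in Astrocytes. Sema5a had the most peaks of any family gene: 22 in NSCs, 25 in Neurons and 19 in Astrocytes. Its 35 merged sites spread over 333 kb with a median gap of 7.34 kb, and 8 of them had a peak in all 3 cell types. The strongest (chromosome 2, 85598655 to 85599483) had folds of 27.1 in NSCs, 39.8 in Neurons and 36.9 in Astrocytes. A second shared site, 85620137 to 85620798, had folds of 30.5, 20.5 and 32.6, so the cell with the highest fold was not the same from site to site. Exons of Sema5a were touched by 2 Neuron peaks (folds 13.3 and 23.6) and 2 Astrocyte peaks (9.12 and 9.94).

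Sema5b had fewer sites but the highest fold of the families in Neurons and Astrocytes. The site at 68321013 to 68322358 of chromosome 11, in an intron, had folds of 55.0 in NSCs, 76.1 in Neurons and 66.9 in Astrocytes. A second Sema5b site, 68417931 to 68418832, stood at 15.3 in NSCs against 44.2 in Neurons and 40.9 in Astrocytes. Of 10 Sema5b sites, 5 had a peak in all cells, and the 4 sites found in 1 cell type were in Neurons or Astrocytes, 2 each.

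In class 6, the membrane ligands of A-type plexins, peaks came mostly from Sema6a, with 3 in NSCs, 5 in Neurons and 4 in Astrocytes. Its CpG island shore site (chromosome 18, 41449748 to 41450265) had similar folds in the 3 lists: 32.8, 35.01 and 31.8. The other Sema6a folds lay between 8.91 and 16.9. Sema6b and Sema6c had 1 Astrocyte peak each, with folds of 4.67 in an exon and 10.1 downstream of the gene. Sema6d had 2 Neuron peaks, at its promoter and in an exon (116956032 to 116956613, fold 11.2). The regions naming Sema6d extended over 18.4 kb, beside a RefSeq length of 592.9 kb. The annotation of the lists seems to hold a shorter Sema6d than RefSeq, which so few regions cannot settle, and no density is given. Sema7a, the ligand of Plxnc1 and of integrins, had 1 site in NSCs (fold 8.76) and in Neurons (13.6, touching an exon) and none in Astrocytes.

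The co-receptors were covered densely: neuropilins held 5.92 peaks per 100 kb in NSCs, 8.51 in Neurons and 5.92 in Astrocytes. Nrp1, which binds Sema3a and also VEGF, had 9 peaks in NSCs, 17 in Neurons and 9 in Astrocytes. Its Neuron density of 10.96 peaks per 100 kb was the highest in that library among family genes with at least 3 peaks, ahead of Sema5b at 6.51. With a score of at least 100 Nrp1 had 3 peaks in NSCs, 3 in Neurons and 4 in Astrocytes. The higher Neuron count thus lay in weaker peaks. Across 22 Nrp1 sites, 3 were shared by all cells and 7 were in Neurons alone. Apart from the shared intronic site at 61444624 to 61445604 of chromosome 19, no Neuron peak of Nrp1 had a fold above 13.6. That shared site had folds of 30.04 in NSCs, 30.15 in Neurons and 21.1 in Astrocytes.

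Nrp2, the co-receptor for Sema3f, had nearly the same number of peaks in each cell, 7, 6 and 7, and higher top folds than Nrp1. Its site at 69502535 to 69503280 of chromosome 9 had folds of 20.7 in NSCs, 36.6 in Neurons and 45.4 in Astrocytes. A second site, 69547344 to 69548182, stood at 30.9, 43.2 and 30.9. Of 10 Nrp2 sites, 4 were found in all cells, and 1 Astrocyte peak with a fold of 19.2 touched an exon.

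Among the receptors, the A-type plexins that pair with neuropilins were divided by gene. Plxna4, a receptor for class 3 and class 6 semaphorins in axons, had 18 peaks in NSCs, 12 in Neurons and 16 in Astrocytes, so that Neurons had the fewest. With a score of at least 100, Plxna4 had 8, 9 and 7 peaks in the same order, so that ranking was not kept. It had 28 sites over 423 kb, of which 7 were shared by all cells and 17 were in 1 cell type, 8 of them in NSCs, 3 in Neurons and 6 in Astrocytes. Its 2 leading sites on chromosome 4 were strong in every library: 59691727 to 59692607 had folds of 63.0, 49.6 and 41.0 in NSCs, Neurons and Astrocytes, and 59500986 to 59501562, which also names another gene, had 56.4, 52.6 and 47.1. Plxna2, a receptor for Sema6a, had 3 peaks in NSCs, 8 in Neurons and 7 in Astrocytes, and its leading site (chromosome 13, 113455732 to 113456961) had folds of 32.6, 19.3 and 39.5. Plxna1 had no peak.

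The B-type plexins, receptors for class 4 semaphorins, were nearly bare. Plxnb2 had 1 Neuron peak in an exon (fold 6.21) and Plxnb3 had 1 Astrocyte peak in an exon (fold 6.38). Plxnc1, the receptor for Sema7a, had 7 peaks in NSCs, 9 in Neurons and 5 in Astrocytes, and the strongest sites of any plexin. At 35918575 to 35919894 of chromosome 7 the folds were 68.8 in NSCs, 35.4 in Neurons and 34.7 in Astrocytes, the highest fold of the families in NSCs. A neighbouring site at 35880059 to 35881591 had 65.6, 65.9 and 56.1, so the step between NSCs and the other lists was not seen there. Of 11 Plxnc1 sites, 4 were in all cells, and Plxnc1 also had an exon peak in NSCs (35890939 to 35891329, fold 11.2). Plxnd1, the Sema3e receptor of vessels and neurons, had 2 peaks in NSCs, 2 in Neurons and 1 in Astrocytes, and its shared site (chromosome 4, 147883827 to 147884494) had folds of 20.0, 14.1 and 11.1.

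**Figure D4:**
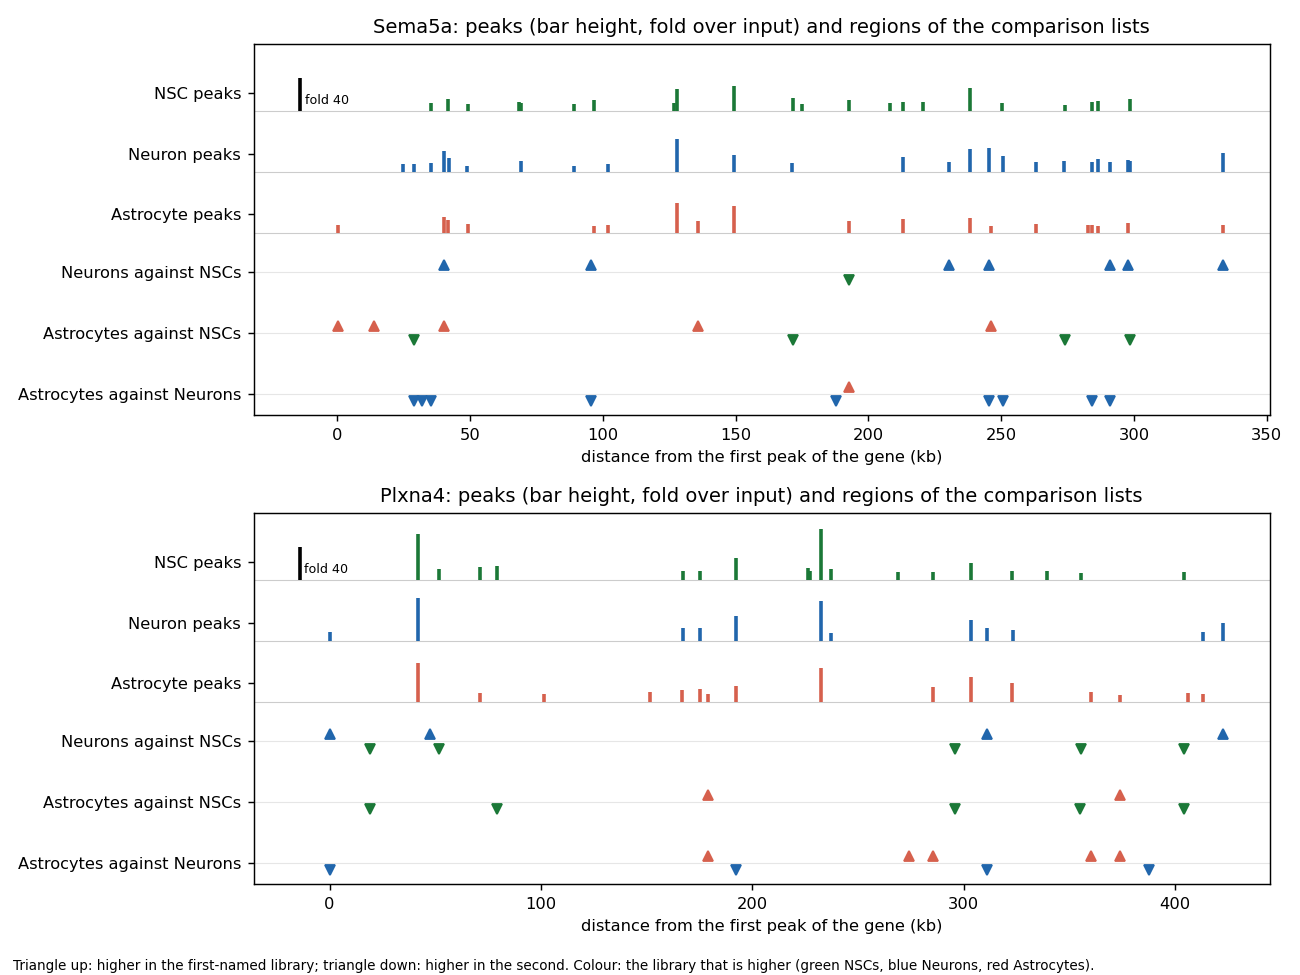
Peaks along Sema5a and Plxna4 are bars whose height is the fold over input (scale bar: fold 40), with distance in kb from the first peak of the gene; triangles are regions of the authors' comparison lists, pointing up where the first-named library is higher and coloured by the higher library. The tallest bars of each gene (folds up to 39.8 at Sema5a and 63.0 at Plxna4) recur at the same place in all 3 libraries, and in the row of Neurons against NSCs Sema5a has 7 triangles up and 1 down.

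Counted by gene, 17 genes had a peak in all 3 cell types, 3 had one in 2 cell types and 6 in 1. Neurons alone had the most peaks at 13 genes, Astrocytes alone at 4 (Sema3a, Sema6b, Sema6c and Plxnb3) and NSCs alone at 2 (Plxna4 and Sema4f). These counts take peaks of every score, and with a score of at least 100 Neurons had the most Plxna4 peaks. The Neuron list is also the longest, with 137579 peaks against 121816 in NSCs and 116091 in Astrocytes. The part of list length in the Neuron counts was not tested. These counts by gene were not made over all genes, so none is given as particular to the families.

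Family peaks were set beside all gene body peaks for how often cell types shared them. The peaks merged into 210 sites, of which 49 (23.3%) had a peak in all 3 cell types, 49 were in Neurons alone, 36 in Astrocytes alone and 27 in NSCs alone. These last are 35.5% of the Neuron, 32.1% of the Astrocyte and 24.8% of the NSC family peaks, beside 35.5%, 28.8% and 30.5% of all gene body peaks. Of the NSC peaks, 45.0% overlapped a peak of both other cells by at least 1 bp (exact 95% interval 35.4% to 54.8%), beside 46.1% of all gene body peaks. For Neurons the share was 35.5% (27.6% to 44.1%) beside 40.1%, and for Astrocytes 43.8% (34.4% to 53.4%) beside 47.2%. All intervals on shares here cover counting error only, and peaks or regions of 1 gene and library are not independent.

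The share differed between strong and weak peaks. Of family peaks with a score of at least 100, 74.5% in NSCs, 67.7% in Neurons and 80.4% in Astrocytes overlapped a peak of any score in both other cells, beside 77.8%, 71.2% and 79.1% of gene body peaks. Below that score the shares were 19.0% (exact 95% interval 9.87% to 31.4%), 6.85% (2.26% to 15.3%) and 18.2% (9.76% to 29.6%), beside 21.7%, 15.4% and 22.3%. The low value of the weak Neuron peaks is the one that lay farthest below gene body peaks. A peak missing from another cell's list was often not listed as higher when the libraries were set against each other. Of the NSC family peaks, 37.8% of those with no Neuron peak and 42.0% of those with no Astrocyte peak overlapped a region listed as higher in NSCs in the authors' deposited tables, beside 36.2% and 38.0% of such gene body peaks. For Neuron peaks the shares were 37.9% against NSCs and 45.8% against Astrocytes in the authors' deposited tables, beside 34.1% and 38.9%. For Astrocyte peaks they were 37.7% against NSCs and 19.6% against Neurons in the authors' deposited tables, beside 29.7% and 27.02%.

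The authors' comparison lists set 1 immunoprecipitated library against another and give the regions higher in either. Comparisons of the 3 cell types share their libraries, so the lists do not support each other. In the authors' deposited tables, 17 of the 31 genes had a region higher in Neurons than in NSCs and 13 a region higher in NSCs than in Neurons, beside 26.9% and 23.8% of 20950 genes. For Astrocytes and NSCs, the authors' deposited tables listed 17 genes with a region above NSCs (all genes 21.4%) and 16 with a region below (25.6%). Between Astrocytes and Neurons the authors' deposited tables listed 11 genes higher in Astrocytes (17.6%) and 17 higher in Neurons (29.6%). Among genes of at least 100 kb, the authors' deposited tables named from 7 of 14 family genes (higher in Astrocytes than in Neurons, all genes so long 55.6%) to 13 of 14 (higher in Neurons than in NSCs, 74.7%, and than in Astrocytes, 77.7%). Below 30 kb the authors' deposited tables named 3 to 5 of 14 family genes in every list, beside 7.41% to 15.2% of all genes so short. These 14 genes span 10.5 to 28.9 kb and were not matched to that background by length. Over all genes, mean Neuron peaks rose from 0.113 at a median length of 0.915 kb to 1.20 at 28.1 kb. The part of length in this difference was not tested.

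**Figure D5:**
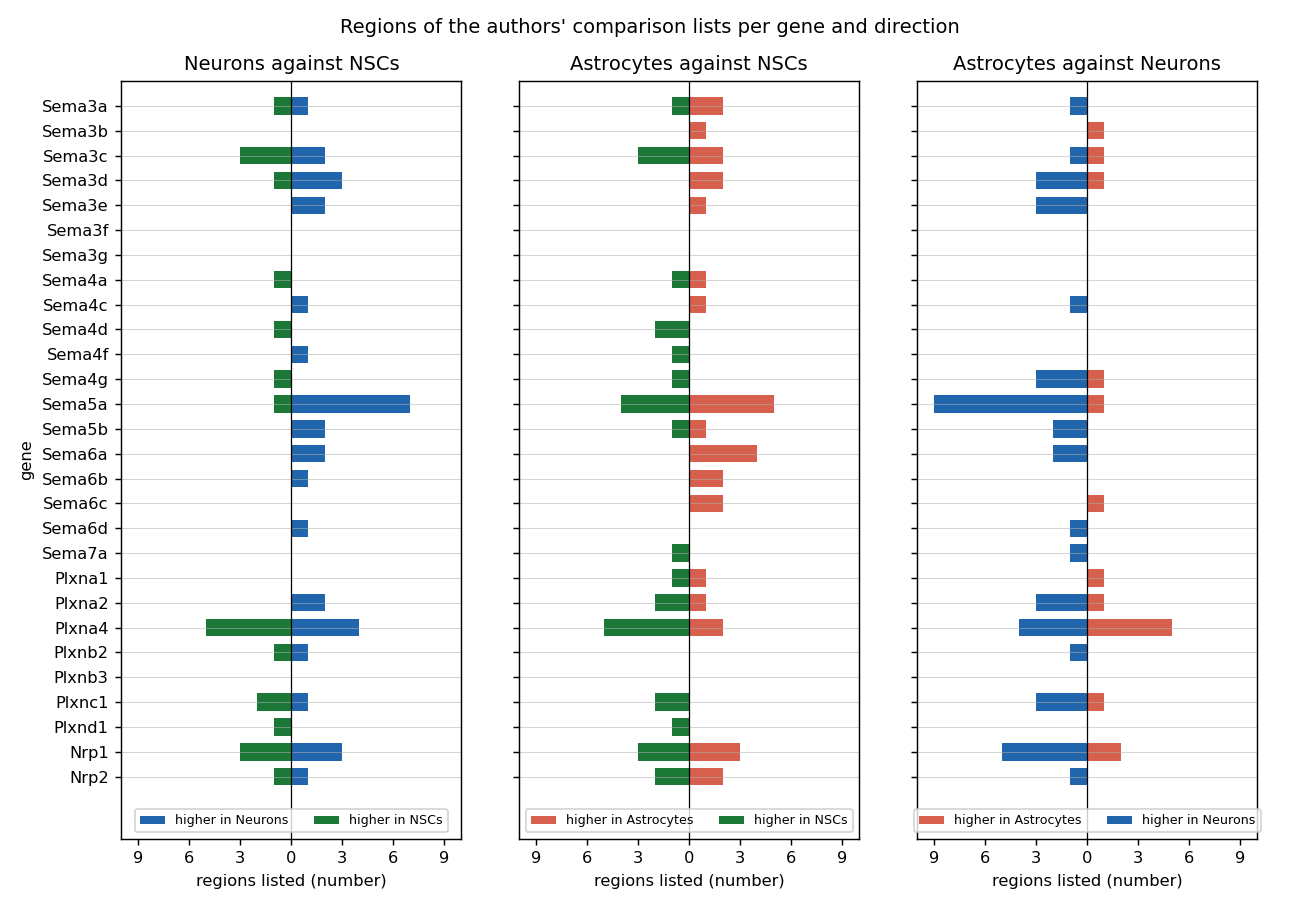
Bars give, per gene, the number of regions that the authors' deposited tables list as higher in either library of each pair, with the higher library in colour and both directions drawn from 0. Sema5a has 9 regions higher in Neurons than in Astrocytes and 1 in the other direction, whereas Plxna4 has 4 and 5.

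Many genes had regions in both directions. In the authors' deposited tables this held for 9 genes between Neurons and NSCs, with 8 in Neurons alone and 4 in NSCs alone. It held for 10 genes between Astrocytes and NSCs (7 and 6 in 1 direction) and for 8 between Astrocytes and Neurons (3 and 9), in the authors' deposited tables. Genes with 1 or both directions were not counted over all genes, so these counts are not given as particular to the families. The authors' deposited tables held 35 family regions higher in Neurons than in NSCs and 22 in the other direction, a share of 61.4% (exact 95% interval 47.6% to 74.0%) beside 54.8% over all gene regions. For Astrocytes against NSCs the authors' deposited tables held 33 and 31 regions, a share of 51.6% (38.7% to 64.2%) beside 42.0%. For Neurons against Astrocytes they were 44 and 16 in the authors' deposited tables, a share of 73.3% (60.3% to 83.9%) beside 70.2%.

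Sema5a had the widest split between directions. In the authors' deposited tables it had 7 regions higher in Neurons than in NSCs and 1 the other way, and 9 higher in Neurons than in Astrocytes and 1 the other way. For Astrocytes against NSCs the authors' deposited tables gave Sema5a 5 and 4 regions. The region with the largest fold lay at 85716519 to 85716972 of chromosome 2, in an intron, with 18.7 over NSCs and 18.9 over Astrocytes in the authors' deposited tables. Here Neurons had a peak with a fold of 29.9 over input and no peak in the other lists. Another stretch of the gene went the other way, with 85663579 to 85664030 at 13.8 in NSCs over Neurons and 85663688 to 85664064 at 13.96 in Astrocytes over Neurons in the authors' deposited tables. Plxna4, the other long gene, was mixed: the authors' deposited tables gave it 4 regions above and 5 below NSCs in Neurons, 2 and 5 for Astrocytes and NSCs, and 5 and 4 for Astrocytes and Neurons. The Plxna4 peak of Neurons at 59770466 to 59771096 of chromosome 4 was listed at 6.83 over NSCs and 18.2 over Astrocytes in the authors' deposited tables.

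Some genes had regions in 1 direction only in both comparisons of a cell type. Sema6a had 2 regions higher in Neurons than in NSCs, 4 higher in Astrocytes than in NSCs and 2 higher in Neurons than in Astrocytes in the authors' deposited tables, and none in the reverse directions. Its region at 41427879 to 41428153 of chromosome 18 was listed at 15.3 over NSCs and 16.9 over Astrocytes in the authors' deposited tables. Sema3e was ordered in the same way, with 2, 1 and 3 regions for these pairs in the authors' deposited tables and none in reverse. Its largest fold there was 14.6, in Neurons over NSCs (17582272 to 17582578 of chromosome 4). At both genes NSCs were the lower and Neurons the higher library in each of their pairs, and these statements share the comparison of Neurons with NSCs.

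Other genes higher in Neurons in both comparisons were Sema4c, Sema5b and Sema6d. For Sema5b the authors' deposited tables listed 2 regions over NSCs and 2 over Astrocytes, among them 68428164 to 68428653 of chromosome 11 at 14.6 and 11.98. The Sema6d promoter peak was listed at 12.3 over NSCs and 13.0 over Astrocytes in the authors' deposited tables. The Sema4c exon region at 43130463 to 43130858 of chromosome 9 was listed at 9.65 and 6.55 in the authors' deposited tables. Sema4c also had a region higher in Astrocytes than in NSCs (fold 8.34 in the authors' deposited table), downstream of the gene in a CpG island that also names Ankrd39.

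NSCs were the higher library at Plxnd1, Sema4d and Sema4g. The Sema4g promoter peak was listed in the authors' deposited tables at 10.6 over Neurons and 11.9 over Astrocytes. Neurons in turn had 3 Sema4g regions over Astrocytes in the authors' deposited table, 1 of them in the promoter class at 264740647 to 264741001 (9.10). Plxnd1 was listed at 147863853 to 147864220 of chromosome 4, at 5.97 over Neurons and 9.59 over Astrocytes in the authors' deposited tables. Sema4d was listed at 13534471 to 13534724 of chromosome 17, at 10.1 and 10.5 in the authors' deposited tables, where it had no peak over input, and its strong shared site was listed at 4.11 over Astrocytes. Plxnc1, with regions in both directions against Neurons, was listed at its strongest NSC site at 4.23 over Neurons and 4.83 over Astrocytes in the authors' deposited tables.

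Astrocytes were the higher library at Sema3b and Sema6c. Sema3b, a secreted ligand without a peak over input, was listed at 116355266 to 116355716 of chromosome 8 at 8.94 over NSCs and 11.7 over Neurons in the authors' deposited tables. Sema6c had the largest fold of the families over NSCs, 19.0 at 196348060 to 196348506 of chromosome 2 in the authors' deposited table, downstream of the gene. A second Sema6c region, in an exon at 196341349 to 196341951, was listed at 7.68 over NSCs and 6.70 over Neurons in the authors' deposited tables. Plxna1, also without a peak over input, had a promoter region at 121264539 to 121264897 of chromosome 4. It was listed in Astrocytes at 9.30 over NSCs and 8.09 over Neurons in the authors' deposited tables. An intronic Plxna1 region, 121250301 to 121250617, went the other way, at 9.30 in NSCs over Astrocytes in the authors' deposited table. Sema6b was lower in NSCs, with 1 region against Neurons and 2 against Astrocytes in the authors' deposited tables. The region against Neurons (8.64) and the higher of the others (9.30) lie downstream of Sema6b and also name Lrg1 in the authors' deposited tables, and the remaining one, in an exon, was at 4.78. Sema7a was lower in Astrocytes, with regions at 7.12 in NSCs and 10.5 in Neurons in the authors' deposited tables.

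Among the other class 3 ligands and A-type plexins, Sema3a was listed at the same place in Neurons and in Astrocytes. The region at 18374078 to 18374593 of chromosome 4 was 14.8 over NSCs in Neurons, and 18374182 to 18374513 within it was 15.9 over NSCs in Astrocytes, in the authors' deposited tables. Sema3a also had a region at 18391124 to 18391567, higher in NSCs than in Astrocytes at 13.3 in the authors' deposited table. For Sema3d the authors' deposited tables listed 3 regions higher in Neurons than in NSCs and 1 the reverse, 2 in Astrocytes over NSCs, and 3 in Neurons over Astrocytes with 1 the reverse, the highest at 15.6 over Astrocytes. Sema3c was mixed, with 2 regions above and 3 below NSCs both in Neurons and in Astrocytes, and 1 each way between these, in the authors' deposited tables.

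Plxna2 had 2 regions higher in Neurons than in NSCs, the larger at 14.6 (113378435 to 113378923 of chromosome 13), and 3 higher in Neurons than in Astrocytes in the authors' deposited tables. Its leading site was listed as higher in Astrocytes, at 3.79 over NSCs and 3.67 over Neurons in the authors' deposited tables. NSCs had 2 Plxna2 regions over Astrocytes, both at 11.96 in the authors' deposited table. Plxnb2 was listed at its Neuron exon peak, at 7.20 over NSCs and 8.09 over Astrocytes, and at its promoter in NSCs, at 6.01 over Neurons, in the authors' deposited tables. Sema4a had a downstream region higher in NSCs, at 8.35 over Neurons and 8.44 over Astrocytes, in the authors' deposited tables. Its intronic site shared by all cells was listed the other way, at 4.86 in Astrocytes over NSCs, with a score of 105.28. Sema4f had 1 region higher in Neurons than in NSCs and 1 higher in NSCs than in Astrocytes in the authors' deposited tables, the latter at 11.2 over its downstream peak.

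Nrp1 had regions in both directions of every pair: 3 and 3 for Neurons and NSCs, 3 and 3 for Astrocytes and NSCs, and 5 and 2 for Neurons and Astrocytes in the authors' deposited tables. Counted at every score, the Neuron list thus had more Nrp1 peaks over input. The direct comparison with NSCs listed as many regions in each direction. Its intronic regions with the largest folds were 61414086 to 61414477 of chromosome 19, higher in Neurons (11.9 over NSCs, 13.1 over Astrocytes), and 61377317 to 61377655, higher in Astrocytes (11.6 over NSCs, 13.5 over Neurons), in the authors' deposited tables. Nrp2 also had regions in both directions against NSCs in the authors' deposited tables. At 69596116 to 69596648 of chromosome 9 NSCs were higher, at 12.3 over Neurons and 13.3 over Astrocytes in the authors' deposited tables. At 69502535 to 69503280 Neurons were listed at 6.92 and Astrocytes at 8.02 over NSCs in the authors' deposited tables. The latter had the highest score of the Nrp2 regions, 132.86. Further Nrp2 regions were at 12.4 in Astrocytes over NSCs, 8.09 in NSCs over Astrocytes and 10.4 in Neurons over Astrocytes. Sema3f, Sema3g and Plxnb3 had no region in any comparison list. Gene body peaks with a peak in the other cell were seldom listed as higher in the authors' deposited tables. The share ran from 1.64% (Astrocytes over Neurons) to 7.69% (Neurons over NSCs). The few shared sites of Sema3f and Sema3g cannot be placed apart from that.

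Partners of semaphorin signalling inside the cell and at the membrane were followed as a list of 42 genes, among them the collapsin response mediators, Mical oxidoreductases, kinases and integrins. Peaks were found at 27 of the 42 in NSCs, 28 in Neurons and 30 in Astrocytes, beside the 45.7%, 49.2% and 45.9% of all genes, with 95, 116 and 102 peaks. The partners were not divided by gene length, here or in the comparison lists. Over all genes the share with an NSC peak was 27.04% below 30 kb and 91.4% from 100 kb. The part of length in the partner counts was not tested. Itga1, the integrin alpha 1 chain, had 10, 12 and 9 peaks in the same order, with highest folds of 74.4, 65.8 and 88.3. Mical2, an enzyme that oxidises actin, had 2 peaks in each cell, with highest folds of 58.2, 78.2 and 55.1. Gsk3b, a kinase of the collapsin response mediators, had 5, 4 and 7 peaks (highest folds 52.4, 46.3 and 31.4), and Ptk7, a co-receptor of the pathway, had 4, 4 and 6 (35.3, 39.4 and 42.6). Of the 42, 18 had a region higher in Neurons than in NSCs and 17 the reverse in the authors' deposited tables, beside 26.9% and 23.8% of all genes. The authors' deposited tables gave 13 higher in Astrocytes (21.4%) and 19 higher in NSCs (25.6%) for that pair, and 13 higher in Astrocytes (17.6%) and 24 higher in Neurons (29.6%) for the last pair. More genes were listed as higher in Neurons than in Astrocytes than the reverse among the partners, the family genes and all genes alike.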

How the data were processed

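The authors aligned reads with BWA, per the submitters' processing notes, with version, genome build, peak caller and annotation source not given in the sources used here. Read counts and the percent mapped were deposited per library, and 1 astrocyte input row without a sample was left out. Per the file headers, each region has a score (10 times the −log10 p, at least 50, p of 1e-05) and a fold enrichment, the authors' ratio of a library to its input or to another library. Regions were used as deposited, with 6 blank lines skipped. Genes were counted from all deposited gene classes with Python 3.11.15 and pandas 2.3.3, and lengths and promoters came from RefSeq GRCr8, whose symbols matched all 28 members. Exact intervals (SciPy 1.17.1) are Clopper-Pearson. The overlap and merging steps were tested on simulated data. Genes were named by rule: per cell type the 5 with most peaks, largest fold and most peaks per 100 kb (at least 3 peaks), every gene with a promoter, exon or CpG island peak, with no peak, or in no list; per comparison list the 5 with most regions and largest fold, and genes with 1 direction in both comparisons of a cell type; of the partners, the 3 with the largest fold per cell type. Members and lists were chosen with earlier results of these data known. Alternatives were a score of at least 100, a fold of at least 10, the gene body class alone, regions naming 1 gene, and an overlap of 50% of the peak.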

Additional observations from a re-analysis of the deposited data

How the results depend on the processing

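Counting gene body regions alone, or regions naming 1 gene, left all 21 results within 1.5 times their value, and an overlap of 50% of the peak left the 9 shares within their intervals. A score of at least 100, asked of all 3 lists, left 51 peaks in NSCs, 65 in Neurons and 46 in Astrocytes, and 1 gene with a promoter peak in NSCs and 1 in Neurons. With it on both sides of an overlap, the share of NSC peaks in Neurons was 76.5%, of NSC peaks in Astrocytes 64.7%, of Astrocyte peaks in NSCs 71.7% and of Astrocyte peaks in Neurons 78.3%. The share in both other cells was then 62.7% in NSCs, 49.2% in Neurons and 69.6% in Astrocytes. In the authors' deposited tables that score left 3 genes (5 regions) higher in Neurons than in NSCs and 2 (3) the reverse, 5 (5) higher in Astrocytes than in NSCs and 2 (2) the reverse, and 1 (1) higher in Astrocytes than in Neurons and 6 (6) the reverse. A fold of at least 10 in the authors' deposited tables left 11 genes (21 regions) higher in Neurons than in NSCs, 8 (11) the reverse, 10 (15) higher in Astrocytes than in NSCs, 16 regions the reverse, 6 genes (7 regions) higher in Astrocytes than in Neurons and 25 regions the reverse. Fewer regions enter under both by construction. Without Sema6d, chosen after seeing the data, peaks per 100 kb were 3.28 in NSCs, 4.09 in Neurons and 3.37 in Astrocytes. No paired analysis was possible because each cell type had 1 library, and no replicate could be left out. Depth was alike in the 3 immunoprecipitated libraries but not in the inputs, and how many weak peaks a deeper library would share was not tested.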
